A study of Mus musculus with 49 samples.

Results

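The late response to interleukin-2 (IL-2) of CD8+ T cells that carry a tyrosine-to-phenylalanine change in STAT5A was read from 6 of the 48 RNA libraries of a series of 49 samples. The 6 were chosen by their treatment labels: 3 libraries labelled STAT5A.48h.KI and 3 labelled STAT5A.0h.KI. KI (knock-in) mice were homozygous for STAT5A Y694F, made with CRISPR/Cas9 and an oligonucleotide in B6D2F1 zygotes and backcrossed for 6 generations to C57BL/6J, and the wild-type (WT) controls were littermates. Both sexes were used at 8 to 24 weeks of age. CD8+ T cells were taken from spleen by negative selection with beads. The 48 h cells were cultured with recombinant human IL-2 at 500 IU/ml, and the 0 h cells were neither cultured nor given IL-2, so the effects of IL-2, of culture and of time outside the animal cannot be told apart in this contrast. All the cells of both KI groups carried the altered STAT5A throughout, and Stat5b was unaltered in them. Used for comparison were KI cells at 24 h, WT cells of the same line at 0 and 48 h, and cells of a separate line in which the matching tyrosine of STAT5B was replaced (Stat5b KI) at 0 and 48 h, with 3 libraries in each group. The sources used here do not say whether the libraries of a group came from separate animals, so p-values measure the spread between these libraries, which may be technical in part.

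STAT5A and STAT5B are closely related transcription factors that wait in the cytoplasm of T cells. Binding of IL-2 to its receptor (the chains CD25, CD122 and the common gamma chain) activates the kinases JAK1 and JAK3, which phosphorylate a single tyrosine near the C-terminus of each STAT5 protein. The phosphorylated proteins pair, enter the nucleus and bind sites with the core TTCNNNGAA, and in CD8+ T cells they are known for driving IL-2 receptor expression, division, survival and the cytotoxic program. A phenylalanine in place of the tyrosine cannot be phosphorylated.

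The altered tyrosine is codon 694 of Stat5a, at chr11:100881755-100881757 (GRCm38, plus strand), in coding exon 16 of 18. The guide target with its PAM (capitals), the reference sequence with the tyrosine codon (capitals) and the same stretch of the repair oligonucleotide with its 4 changed bases (capitals) are shown because they define the cells. The guide target lies at chr11:100881731-100881753 and the other stretches at chr11:100881731-100881772, all on the plus strand.
Stat5a guide target: ccggcagcgaaagcagttgaCGG
Stat5a reference: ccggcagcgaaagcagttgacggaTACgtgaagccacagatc
Stat5a repair oligonucleotide: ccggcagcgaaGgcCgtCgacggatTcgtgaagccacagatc
Of the 4 changes, 3 are silent and the last one changes tyrosine to phenylalanine (Y694F).

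The 0 h libraries were the shallower. The 0 h KI libraries held 28446596, 41750361 and 34758020 reads on the transcripts used, and the 48 h KI libraries held 48263204, 49386788 and 46721869. Levels are given as RPKM, read counts scaled to transcript length and library depth, which allows genes and libraries to be compared. Changes are log2 fold changes ± SE fitted in edgeR, and every adjusted p comes from its quasi-likelihood F-test over 15562 genes after Benjamini-Hochberg correction. Genes were called, and are said to rise or fall, if they changed at least 2-fold with an adjusted p not above 0.05. RPKM values are scaled to all mapped reads, of which the transcripts used held 68.81% to 70.61% at 0 h and 77.67% to 80.6% at 48 h, and the log2 ratio of RPKM values exceeds the fitted change by a median of 0.19.

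Transcripts of the labelled cell type were present in all 6 libraries. Cd8b1, a chain of the CD8 co-receptor, was at 210, 211 and 213 RPKM at 0 h and 490, 594 and 534 RPKM at 48 h. Cd4, the co-receptor of helper T cells, was at 17.1 to 19.5 RPKM at 0 h and 5.44 to 5.88 RPKM at 48 h. Transcripts of other spleen cells were also present, mainly at 0 h, and are described further down. At 0 h the dendritic cell list, mostly MHC class II genes, summed to 1973 to 2415 RPKM. The CD8 T cell list summed to 836.7 to 881.3 RPKM. The altered gene itself was at 17.9, 20.6 and 21.5 RPKM at 0 h and 20.9, 21.6 and 21.1 RPKM at 48 h (log2 fold change -0.11 ± 0.07, adjusted p = 0.18). Stat5b was likewise at 25.3 to 27.7 RPKM and 28.5 to 30.3 RPKM (-0.01 ± 0.11, adjusted p = 0.92). A change of 1 amino acid is not visible in these values, so the level of Stat5a does not check the genotype.

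The KI cells did respond. Of 15562 genes tested, 1574 (10.1%) were called higher at 48 h and 2487 (16.0%) lower, and at the adjusted p alone 5280 were higher and 4481 lower. By RPKM, the 3 libraries of one time lay wholly to one side of the 3 of the other in 3842 of the 4061 called genes (94.6%) and in 11215 of all genes tested (72.1%). RPKM ratios ran above the fitted changes by a median of 0.19, so genes without a fitted change can also lie apart, as Stat5b did. The share of 72.1% is therefore not a share of genes that changed. The genes that fell were mostly of low abundance. Of them, 1420 had a mean below 1 RPKM at both times, against 296 of those that rose, and among the 11072 genes with a mean of at least 1 RPKM at either time, 1278 were called higher and 1067 lower. The median change over all genes was 0.00 on the log2 scale. In bulk RNA, fewer cells of a type and less RNA per cell cannot be told apart.

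The highest rises among well-expressed genes were in Gzmc, Drc1 and Gzmb. Among the 12 genes with the largest rise were Gzmb and Gzmc (granzymes), Iigp1, Gm12250, Irgm2 and Igtp (immunity-related GTPases), Gpr15 (a homing receptor), Fignl1 (DNA repair), Fam64a (also called Pimreg, a mitotic protein), Drc1, Clhc1 and Myl10. Among the 12 with the largest fall were Fosb, Fos, Atf3 and Maff (AP-1 family and related factors), Klf4, Tnfaip3 (the NF-kappaB inhibitor A20), Hspa1a and Hspa1b (inducible HSP70), Treml4, Il1b and Tgfbi (genes of myeloid cells) and Gm6377. Drc1 reached 23, 31 and 27.3 RPKM at 48 h from 0.4, 0.509 and 0.502 RPKM at 0 h. Its change was 5.64 ± 0.32 on the log2 scale (adjusted p = 3.1e-17). The rule for naming these genes asked for a mean of at least 5 RPKM, more than 3 reads in every library and no overlap between the times. Genes outside it were not ranked.

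**Figure D1:**
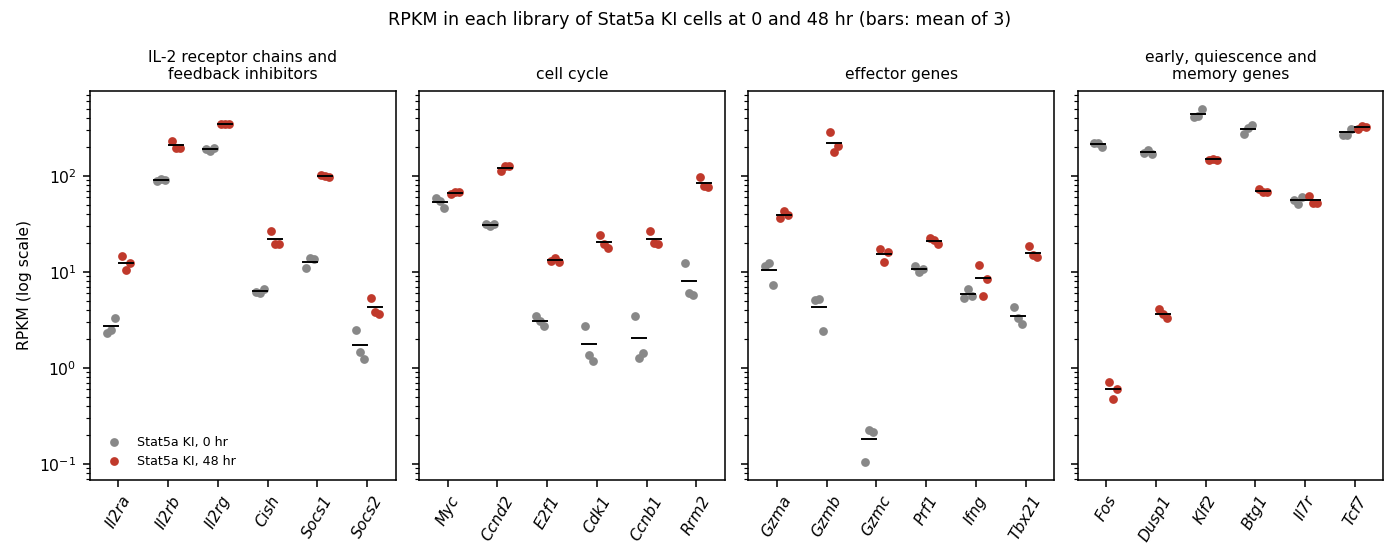
RPKM (log scale) of 24 genes in each of the 3 Stat5a KI libraries at 0 h (grey) and 48 h (red), with bars at the mean. The times are far apart for Gzmb, Ccnb1 and Fos, for example, and overlap for Ifng, Il7r and Tcf7.

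Of 20 listed genes of the IL-2 receptor and its signalling, 10 were called higher and 2 lower, with a median change of 0.83. Over all genes tested the shares were 10.1% and 16.0%, and the difference from them was not tested. Il2ra, which encodes CD25, the chain that gives the receptor its high affinity, was at 2.34, 2.47 and 3.33 RPKM at 0 h and 14.5, 10.6 and 12.3 RPKM at 48 h (2.00 ± 0.38, adjusted p = 2.1e-05). All 48 h libraries lay above all 0 h libraries, and the call was lost when a shallow 4 h KI library of 1028503 reads, left out elsewhere, was also in the fit (adjusted p = 0.069). Il2rb, the CD122 chain shared with the IL-15 receptor, went from 87.8, 93.7 and 91.4 RPKM to 233, 196 and 196 RPKM. Its change of 1.00 ± 0.15 (adjusted p = 5.5e-07) sits on the 2-fold threshold, and it was 0.93 and not called when only the libraries compared were fitted, with or without the replicate number as a block. The call was also lost without any one of the 0 h libraries or replicate 1 of the 48 h libraries, and over all alternatives the change was 0.87 to 1.18. Il2rg, the common gamma chain, stayed under that threshold (0.67 ± 0.09) with 184 to 195 RPKM at 0 h and 346 to 347 RPKM at 48 h.

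The feedback inhibitors of cytokine signalling did not behave alike. Socs1, which blocks JAK kinases, was at 11.1, 13.9 and 13.5 RPKM at 0 h and 101.5, 99.9 and 98.2 RPKM at 48 h (2.76 ± 0.24, adjusted p = 1.6e-12). Cish, a STAT5 target that damps IL-2 signalling, was at 6.21, 6.08 and 6.67 RPKM and then 26.9, 19.4 and 19.6 RPKM (1.60 ± 0.21, adjusted p = 4.5e-08). Socs2 rose from 1.24 to 2.46 RPKM to 3.66 to 5.34 RPKM (1.12 ± 0.22, adjusted p = 3e-05), a call lost without replicate 2 or 3 of the 0 h libraries or replicate 1 of the 48 h libraries (0.88 to 1.39 over all alternatives). For all 3 genes the 2 times did not overlap, with replicate 1 the highest at 48 h in each. Socs3, an inhibitor of gp130 receptors, was at 36.5 to 48.3 RPKM before and 34 to 36.4 RPKM after, below the fold threshold (-0.48 ± 0.17). Pim1, a survival kinase, fell from 254, 275 and 264 RPKM to 97.9, 103 and 98.5 RPKM (-1.60 ± 0.16, adjusted p = 4.2e-11). Its relative Pim2 rose from 23.3 to 29.1 RPKM to 115.9 to 121.1 RPKM (1.98 ± 0.10, adjusted p = 1.5e-18), and the survival gene Bcl2 from 13.9 to 16.1 RPKM to 62.3 to 68.3 RPKM (1.95 ± 0.11, adjusted p = 4.4e-17). Of 17 other cytokine receptors, 5 were called higher and 2 lower, against 10.1% and 16.0% of all genes tested. Il7r, the receptor of the homeostatic cytokine IL-7, was at 56.5, 50.9 and 60.3 RPKM at 0 h and 62.2, 52.8 and 52.5 RPKM at 48 h, and the times overlapped.

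The transcript of Myc, which encodes a transcription factor that couples growth signals to biosynthesis, did not differ detectably between the times in the fit. Myc was at 59.4, 54.6 and 46.8 RPKM at 0 h and 65.4, 67.7 and 67.7 RPKM at 48 h (0.13 ± 0.18, adjusted p = 0.54). These RPKM values did not overlap between the times, on a scale that runs above the fitted change. Of the 12 listed genes of the MYC, MAX and MXD network, 2 were called higher and 3 lower.

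The E2F factors, which switch on the genes of S phase, rose in most cases. Of 13 listed E2F, DP and pocket protein genes, 8 were called higher and 0 lower, with a median change of 1.70. E2f1 was at 3.47, 3.12 and 2.71 RPKM at 0 h and 13.1, 14 and 12.7 RPKM at 48 h (1.90 ± 0.16, adjusted p = 1.4e-12). The other activators and their partner behaved similarly: E2f2 changed by 2.21 ± 0.17, E2f3 by 2.07 ± 0.11 and Tfdp1 by 2.00 ± 0.11, all called. The atypical repressors E2f7 and E2f8, themselves E2F targets, rose by 3.43 ± 0.23 and 3.14 ± 0.22.

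The list of cyclins and cyclin-dependent kinases, which also holds the CDC25 phosphatases, was called higher in 14 of 18 and lower in 1. Among the D cyclins, which link growth signals to the cycle, Ccnd2 was at 31.5, 29.9 and 31.5 RPKM at 0 h and 112.2, 126.2 and 126.2 RPKM at 48 h (1.78 ± 0.10, adjusted p = 6.9e-18). Ccnd3 rose from 47.2 to 55.2 RPKM to 122.6 to 138.1 RPKM (1.15 ± 0.13, adjusted p = 2.5e-09). Ccnd1 was the one that fell, from 7.83, 6.27 and 6.84 RPKM to 1.98, 1.14 and 1.23 RPKM (-2.46 ± 0.30, adjusted p = 5.8e-09). Of the kinase partners of the D cyclins, Cdk4 rose by 1.27 ± 0.09 and Cdk6 by 1.03 ± 0.11, from 5.27 to 5.52 RPKM to 11.6 to 13.3 RPKM. Cdk6 was not called when only the libraries compared were fitted (0.96 with or without the replicate number as a block) or without replicate 1 or 3 of the 0 h libraries or replicate 2 of the 48 h libraries (0.90 to 1.11 over all alternatives), and Cdk7, of the CDK-activating kinase, stayed under the threshold at 0.73 ± 0.09. Cyclins of the later phases rose more: Ccne1 by 2.93 ± 0.15, Ccna2 by 3.16 ± 0.25 and Ccnb1 by 3.27 ± 0.27. Of 8 CDK inhibitors, 3 rose and 3 fell. Cdkn2c, an inhibitor of CDK4 and CDK6, rose from 3.19 to 4.63 RPKM to 15.4 to 20.2 RPKM (2.04 ± 0.19, adjusted p = 8.7e-12), whereas Cdkn1a (p21) fell from 6.18 to 7.99 RPKM to 2.43 to 3.4 RPKM (-1.58 ± 0.22, adjusted p = 9.3e-08). Cdkn1b (p27), which holds resting T cells out of the cycle, was at 51.8 to 56.9 RPKM and then 34.4 to 37.2 RPKM, a fall too small to be called (-0.81 ± 0.10).

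DNA replication genes were called higher in 30 of 38, with 0 lower and a median change of 1.60. Mcm10, needed to start the replication fork, was at 1.1, 0.623 and 0.622 RPKM at 0 h and 13.4, 11.5 and 11 RPKM at 48 h (3.76 ± 0.22, adjusted p = 5e-17). The helicase subunits Mcm2 and Mcm5 rose by 1.81 ± 0.10 and 2.06 ± 0.11, and Cdc45, their partner at the fork, by 2.82 ± 0.18. Rrm2, the regulated subunit of ribonucleotide reductase, which is counted in the nucleotide synthesis list, was at 12.3, 5.99 and 5.72 RPKM at 0 h and 98.3, 79.5 and 77.1 RPKM at 48 h (3.23 ± 0.24, adjusted p = 2.1e-14). Pcna, the sliding clamp, went from 140.6 to 148.8 RPKM to 270 to 309 RPKM, which was under 2-fold in the fit (0.80 ± 0.09). Uhrf1 and Dnmt1, which copy DNA methylation onto the new strand, rose by 3.13 ± 0.17 and 2.04 ± 0.07.

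Mitosis and kinetochore genes had the highest share of members called higher of the 35 lists of gene function, 38 of 40 with 0 lower, with a median change of 2.76. Ccnb1, the cyclin of mitotic entry, which is counted in the cyclin and kinase list, was at 3.44, 1.27 and 1.43 RPKM at 0 h and 26.7, 19.9 and 19.5 RPKM at 48 h (adjusted p = 4.2e-13). Its kinase Cdk1, of the same list, was at 2.74, 1.37 and 1.17 RPKM and then 24, 19.4 and 17.8 RPKM (3.36 ± 0.26, adjusted p = 8e-14). In the mitosis list itself, Ube2c, the ubiquitin enzyme that helps end mitosis, was at 14.8, 6.87 and 7.09 RPKM and then 86.8, 65.2 and 68.1 RPKM (2.76 ± 0.26, adjusted p = 1.3e-11). In each of these genes replicate 1 was the highest library at both times, and no 0 h library reached a 48 h library. Aurkb and Plk1 (mitotic kinases), Top2a and Mki67 rose by 3.25, 3.22, 3.03 and 2.71. The 2 members not called were Cks2 (0.16 ± 0.13) and Pttg1, the securin, at 9.38 to 11.7 RPKM before and 9.2 to 10.6 RPKM after (-0.32 ± 0.10). With replicate 1 left out at both times, 37 of 40 were called and the median was 3.08.

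Promoter stretches of Ccnb2 and Cdk1, from the cyclin and kinase list, and of Ube2c, from the mitosis list, are shown for the short letter runs that many promoters of the mitosis list hold. The sequences are RefSeq stretches upstream of the start (GRCm38), each written on the strand of its gene. Capitals mark CCAAT, the letters of the box read by NF-Y, or its reverse complement ATTGG, and TTTGAA or its reverse complement TTCAAA, a run found in cell cycle homology elements. The Ccnb2 stretch holds CCAAT alone, and the TTTGAA runs of its promoter lie outside it. Ccnb2 is at chr9:70421563-70421649 (minus strand, -95 to -9 from the start), Cdk1 at chr10:69352914-69353000 (minus strand, -88 to -2) and Ube2c at chr2:164769833-164769913 (plus strand, -96 to -16).
Ccnb2: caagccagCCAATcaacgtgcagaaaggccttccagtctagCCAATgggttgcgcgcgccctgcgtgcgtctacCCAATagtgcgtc
Cdk1: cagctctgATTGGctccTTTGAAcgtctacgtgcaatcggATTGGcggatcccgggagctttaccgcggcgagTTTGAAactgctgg
Ube2c: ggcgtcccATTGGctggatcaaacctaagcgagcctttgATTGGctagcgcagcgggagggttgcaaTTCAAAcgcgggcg
Over windows from 250 bases before to 50 after the start, on both strands, 35 genes of the mitosis list had 39 promoters in the table. CCAAT was in 29 of them (74.4%) against 37.4% of all 32851 promoters and also 37.4% of those of the genes tested. TTTGAA was in 23 (59.0%) against 17.9% and 12.6%. Of the promoters of all genes called higher, 42.4% held CCAAT and 19.3% TTTGAA, and of those called lower 35.8% and 13.5%. For DNA replication, TTTCCCGC and TTTGGCGC, 2 forms of the E2F site, were in 6 of 36 promoters each (16.7%), against 1.07% and 0.514% of all promoters and 1.75% and 0.897% of those of the genes tested. Of the promoters of genes called higher, 3.83% and 1.81% held them, and of those called lower 0.864% and 0.728%. A match is a description of letters and not evidence of binding.

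Metabolic genes that supply division were called higher in part. Nucleotide synthesis genes were called higher in 12 of 24 and lower in 0, with a median change of 1.03, and serine, glycine and one-carbon enzymes in 7 of 12 and 0, with a median of 1.04 (4 higher without replicate 2 of the 0 h libraries). Psat1, of serine synthesis, was at 11.5, 8.32 and 8.53 RPKM at 0 h and 46, 38.7 and 38.2 RPKM at 48 h (1.93 ± 0.12, adjusted p = 2.6e-16). Mthfd2, the mitochondrial folate enzyme, rose from 10.4 to 13.8 RPKM to 28.2 to 31.2 RPKM (1.12 ± 0.10, adjusted p = 9.8e-12), a call lost without replicate 2 of the 0 h libraries (0.98 to 1.25 over all alternatives). Tk1 (thymidine kinase) rose by 2.60 ± 0.21. Sterol and fatty acid genes were called higher in 10 of 26 and lower in 1. Idi1, of isoprenoid synthesis, rose by 1.92 ± 0.14 and Fasn by 1.15 ± 0.11, while Scd1, a stearoyl-CoA desaturase, fell from 22.2 to 25.9 RPKM to 4.36 to 4.51 RPKM (-2.63 ± 0.35, adjusted p = 4.3e-08). Glycolysis genes were called higher in 5 of 16 and lower in 0. Ldha, of lactate production, was just past the threshold (1.01 ± 0.09). Its call was lost without replicate 2 or 3 of the 0 h or replicate 1 of the 48 h libraries. It was also lost when only the libraries compared were fitted, with or without the replicate number as a block (0.87 to 1.19 over all alternatives). Slc2a1, the glucose transporter GLUT1, fell from 29.7 to 30.3 RPKM to 14.1 to 15.5 RPKM (-1.21 ± 0.09, adjusted p = 1e-13).

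Genes of protein synthesis and turnover and of respiration mostly stayed under the 2-fold threshold. Ribosome biogenesis genes were called higher in 7 of 35 (3 in a fit of the compared libraries alone, with or without the replicate block, 3 without replicate 1 and 4 without replicate 3 of the 0 h libraries) with a median of 0.37, aminoacyl-tRNA synthetases in 1 of 20 with a median of 0.74, proteasome subunits in 1 of 31 with a median of 0.63 and respiratory chain genes in 0 of 36 with a median of 0.45. At the adjusted p alone, 24 of 35, 17 of 20, 29 of 31 and 29 of 36 members of these lists were higher. Cytosolic ribosomal protein genes had 0 of 45 called in either direction and a median of -0.30, with 29 lower at the adjusted p alone. Of the amino acid and glucose transporters, 1 of 14 was called higher, Slc16a3 at 1.00, and 3 lower. The Slc16a3 call was lost when only the libraries compared were fitted, with or without the replicate block. It was also lost with replicate 1 left out at both times. Slc7a5, the large amino acid transporter, was at 18.7 to 23.7 RPKM before and 28 to 33.6 RPKM after (0.35 ± 0.11), below the threshold.

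**Figure D2:**
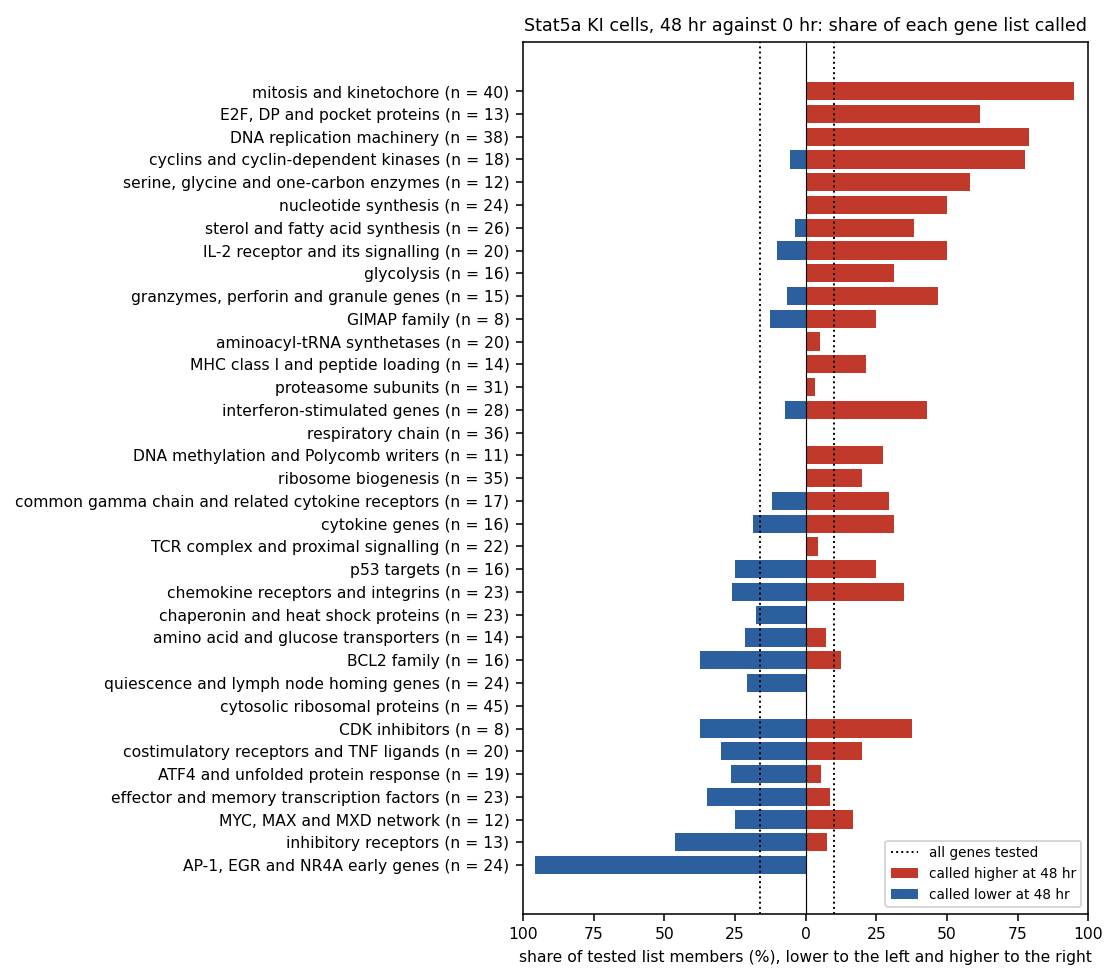
Share of the tested members of each gene list called lower (blue, left) or higher (red, right) at 48 h against 0 h in Stat5a KI cells, in percent, ordered by the lists' median change. Dotted lines mark the shares over all 15562 genes, 10.1% higher and 16.0% lower, and the mitosis list (38 of 40 higher) and the early gene list (23 of 24 lower) lie at opposite ends.

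Of 15 granule genes of cytotoxic cells, 7 were called higher, granzymes with the largest changes, 7 were not called and 1, Srgn, which encodes the granule proteoglycan serglycin, fell. Gzmb, the main apoptosis-inducing granzyme, was at 5.14, 5.25 and 2.44 RPKM at 0 h and 286, 176 and 204 RPKM at 48 h (5.50 ± 0.37, adjusted p = 2.5e-15). Gzmc went from 0.105, 0.229 and 0.218 RPKM to 17.5, 12.7 and 16.2 RPKM (6.13 ± 0.40, adjusted p = 8.1e-16), and Gzma from 7.24 to 12.5 RPKM to 36.1 to 42.9 RPKM (1.72 ± 0.43, adjusted p = 0.00075). Reads of Gzmb to Gzmg, a cluster of similar genes, could be shared between them, so the values of its low members are uncertain. Gzmk, a granzyme of memory cells, ranged from 1.69 to 6.28 RPKM at 0 h and 2.1 to 5.63 RPKM at 48 h, and the times overlapped. Perforin, the pore former encoded by Prf1, was at 9.93 to 11.6 RPKM and then 19.6 to 22.6 RPKM, not called (0.79 ± 0.15). Serpinb9, which protects the killer cell from its own granzyme B, rose by 1.86 ± 0.20. NK cell markers, described further down, were called higher in 5 of 8 and lower in 1. The part of NK cells in the rises of granule genes was not tested.

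Of 16 cytokine genes tested, 5 were called higher and 3 lower. Their share called lower was near the 16.0% of all genes tested, of which 10.1% were called higher. Ifng, the signature cytokine of cytotoxic cells, was at 5.34, 6.72 and 5.64 RPKM at 0 h and 11.8, 5.64 and 8.5 RPKM at 48 h, with overlap (0.35 ± 0.34, adjusted p = 0.38). The chemokine gene Xcl1 rose from 23.6 to 27.4 RPKM to 139.4 to 188.8 RPKM (2.57 ± 0.24, adjusted p = 8.1e-12) and Lta (lymphotoxin) from 4 to 4.88 RPKM to 11.7 to 12.7 RPKM (1.24 ± 0.12, adjusted p = 6.3e-11). Il2 itself was low at both times, at 0.0697 to 0.207 RPKM and then 0.236 to 0.688 RPKM, and its call (1.68 ± 0.64, adjusted p = 0.021) was lost without replicate 2 of the 0 h or replicate 1 or 3 of the 48 h libraries (1.27 to 2.03 over all alternatives). The 3 that fell were Il10, Il17a and Il21. Of genes of the IL-2 receptor list, Osm (oncostatin M, a STAT5 target) rose from 1.77 to 2.02 RPKM to 16.5 to 17.9 RPKM (2.97 ± 0.21, adjusted p = 5.9e-15).

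Interferon-stimulated genes were called higher in 12 of 28 and lower in 2, with a median of 0.62. Gbp2, a guanylate-binding protein, rose by 3.48 ± 0.35. Other members did not follow. Irf7 was at 23.2 to 26 RPKM and then 28.4 to 36.5 RPKM (0.23 ± 0.19), and the antiviral GTPase Mx1 fell by 1.21 on the log2 scale (SE 0.29, adjusted p = 0.00045). The immunity-related GTPases Igtp, Irgm2 and Gm12250, which are interferon-inducible but not in this list, were named for their size of change. Igtp was at 24, 22.9 and 23.4 RPKM at 0 h and 363, 371 and 384 RPKM at 48 h (3.80 ± 0.20, adjusted p = 2.2e-18). Irgm2 went from 3.89 to 4.83 RPKM to 84.8 to 95.4 RPKM (4.20 ± 0.18, adjusted p = 1.2e-20) and Gm12250 from 1.68 to 2.77 RPKM to 65.5 to 72.4 RPKM (4.80 ± 0.27, adjusted p = 1.3e-17). The times of these genes were apart by the rule that named them.

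The upstream sequences of 3 of these GTPase genes, neighbours on chromosome 11, are shown because they place the STAT core beside the letters read by interferon regulatory factors. Igtp is at chr11:58199499-58199543 (-57 to -13 from the start), Irgm2 at chr11:58214890-58214934 (-87 to -43) and Gm12250 at chr11:58183740-58183818 (-103 to -25), all GRCm38 and plus strand, from RefSeq. Capitals mark TTCNNNGAA with any letters at N, and GAAA followed after any 2 letters by another GAAA, or the reverse complement of that run.
Igtp: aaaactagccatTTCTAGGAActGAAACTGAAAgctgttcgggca
Irgm2: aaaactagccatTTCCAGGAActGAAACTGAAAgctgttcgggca
Gm12250: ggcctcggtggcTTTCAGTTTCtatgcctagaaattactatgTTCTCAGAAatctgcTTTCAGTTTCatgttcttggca
The Igtp and Irgm2 stretches are near copies of each other, and reads could also be shared between such related genes. The paired GAAA run, searched on both strands, was in 12 of 28 promoters (42.9%) of 22 genes of the list, against 3.44% of all promoters, 3.13% of those of the genes tested, 5.42% of those of genes called higher and 3.28% of those of genes called lower. TTCNNNGAA was in 6 of the 28 (21.4%). Over all genes called higher it was in 8.38% of promoters, over those called lower in 7.69% over the genes tested in 7.12% and over all promoters in 8.3%.

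Transcripts of immediate early genes, which cells make within minutes of handling or stimulation, were high at 0 h and fell by 48 h. In the list of AP-1, EGR and NR4A early genes, 23 of 24 were called lower and 0 higher, with a median change of -3.17. Fos was at 221, 223 and 201 RPKM at 0 h and 0.718, 0.48 and 0.611 RPKM at 48 h (-8.67 ± 0.21, adjusted p = 3.1e-28). Fosb fell from 231, 238 and 251 RPKM to 0.172, 0.127 and 0.176 RPKM (-10.75 ± 0.47, adjusted p = 1.5e-20), and Junb from 579 to 629 RPKM to 30.8 to 35.9 RPKM. Egr1 and Nr4a1, which also report T cell receptor signals, fell by 4.38 and 4.90 on the log2 scale. The list's median change was -2.81 in WT cells and -3.06 in Stat5b KI cells, each against its own 0 h libraries. Cd69, the early activation receptor, fell from 333, 401 and 415 RPKM to 25.9, 19.6 and 21.2 RPKM (-4.30 ± 0.25, adjusted p = 3.3e-17), and Crem, a cyclic AMP-responsive factor, from 3.96 to 5.68 RPKM to 2.16 to 2.53 RPKM (-1.17 ± 0.20, adjusted p = 2.9e-06).

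Genes of quiescence and lymph node homing were called lower in 5 of 24 and higher in 0, with a median of -0.25. Their share called lower was near that of all genes tested (16.0%). Klf2, which keeps T cells resting and recirculating, fell from 409, 422 and 503 RPKM to 146.3, 151.7 and 148.1 RPKM (-1.77 ± 0.15, adjusted p = 4.4e-13), and Ccr7, the lymph node homing receptor, from 347, 407 and 503 RPKM to 148.2, 163.5 and 157.2 RPKM (-1.61 ± 0.15, adjusted p = 1.4e-11). S1pr1, the receptor for leaving lymphoid tissue, was at 85.2 to 132.6 RPKM and then 92 to 95.6 RPKM (-0.43 ± 0.13), which did not pass the fold threshold. Tcf7, which encodes the memory and stem-like factor TCF1, was at 270, 269 and 312 RPKM at 0 h and 305, 333 and 321 RPKM at 48 h, with overlap (-0.02 ± 0.07, adjusted p = 0.82).

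Among effector and memory transcription factors, 2 of 23 were called higher and 8 lower. Tbx21, encoding T-bet, was the clear riser, from 4.32, 3.35 and 2.87 RPKM to 18.6, 14.9 and 14.2 RPKM (1.99 ± 0.16, adjusted p = 1.9e-13). Eomes, its relative, was at 11.7 to 13.2 RPKM and then 24.2 to 28.3 RPKM, under the threshold (0.88 ± 0.18). Bcl6, the repressor opposed by STAT5, fell from 9.51 to 11 RPKM to 2.83 to 3.22 RPKM (-1.94 ± 0.18, adjusted p = 6.4e-12). Inhibitory receptors were called lower in 6 of 13 and higher in 1 (4 lower with replicate 1 left out at both times). Ctla4 fell from 35.4, 37.4 and 38.5 RPKM to 3.27, 2.16 and 2.15 RPKM (-4.08 ± 0.19, adjusted p = 5.4e-20) and Havcr2, encoding TIM-3, from 10.4 to 12.8 RPKM to 0.549 to 1.05 RPKM (-4.03 ± 0.27, adjusted p = 1.7e-15). Both are also expressed by other spleen cells, regulatory T cells for the first and myeloid cells for the second. Cd160 was the one that rose (1.49 ± 0.18). Among chemokine receptors and integrins, 8 of 23 rose and 6 fell. Cxcr6, a receptor of tissue-resident and effector cells, rose from 3.42 to 4 RPKM to 37.8 to 42.9 RPKM (3.22 ± 0.20, adjusted p = 2e-16) and Cxcr3 by 2.24 ± 0.18, while Cxcr4 fell from 97.6 to 129.3 RPKM to 29.5 to 31.4 RPKM (-2.08 ± 0.15, adjusted p = 6.2e-15).

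Few stress genes rose. Chaperonins and heat shock proteins were called lower in 4 of 23 and higher in 0. Their share called lower was near the 16.0% of all genes tested, of which 10.1% were called higher. Hspa1a and Hspa1b, copies so alike that reads cannot be assigned with certainty, were at 27.7 to 38.1 RPKM and 30.4 to 41.7 RPKM at 0 h and at 0.172 to 0.194 RPKM and 0.214 to 0.25 RPKM at 48 h. Hspa5, the chaperone BiP, fell from 456, 394 and 385 RPKM to 147.6, 117.5 and 120.5 RPKM (-1.88 ± 0.12, adjusted p = 3.5e-16). Genes of ATF4 and the unfolded protein response were called lower in 5 of 19 and higher in 1, Asns (1.42 ± 0.43), whose call was lost without replicate 2 or 3 of the 0 h libraries (0.97 to 2.35 over all alternatives). Atf4 fell from 118.1 to 121.9 RPKM to 56.7 to 63.6 RPKM (-1.22 ± 0.10, adjusted p = 1.2e-12).

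The remaining lists had mixed or small changes. The BCL2 family list, which also holds Bcl10, had 2 of 16 called higher (1 when only the libraries compared were fitted, with or without the block) and 6 lower. For p53 targets the counts were 4 of 16 (2 without replicate 2 of the 0 h libraries) and 4, for costimulatory receptors and TNF ligands 4 of 20 and 6, and for the GIMAP family of lymphocyte GTPases 2 of 8 and 1. Genes of the T cell receptor complex and its proximal signalling had 1 of 22 called higher and 0 lower. MHC class I and peptide loading genes had 3 of 14 and 0, and DNA methylation and Polycomb writers 3 of 11 and 0. Several of the counts of 0 to 2 moved by 1 when single KI libraries were left out. Gimap4, of the last family, rose from 90.4 to 95.7 RPKM to 344 to 400 RPKM (1.77 ± 0.13, adjusted p = 5.3e-14). Tnfrsf9, the costimulatory receptor 4-1BB, rose from 3.89 to 5.15 RPKM to 15.6 to 24.9 RPKM (1.91 ± 0.20, adjusted p = 2.5e-10).

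Transcripts of other spleen cells fell along with these genes. B and plasma cell markers were called lower in 10 of 11, with sums of 681.3, 354.8 and 391.9 RPKM at 0 h and 133.7, 108.8 and 130.9 RPKM at 48 h. Their most abundant gene was Igj, the immunoglobulin J chain, at 344, 80.6 and 78.3 RPKM and then 14.1, 2.6 and 3.61 RPKM. Dendritic cell markers were called lower in 10 of 11, from sums of 2415, 1973 and 2058 RPKM to 324.8, 261.1 and 267.6 RPKM, mostly MHC class II genes such as H2-Ab1, which B cells also express, and H2-Aa, the most abundant. Macrophage and monocyte markers were called lower in 13 of 16 and higher in 1, from 179.4, 113.4 and 97.32 RPKM to 78.44, 27.02 and 26.69 RPKM, with Lyz2 the most abundant. The one called higher, Trem2, was at 0 in all 0 h libraries. With only the libraries compared and the replicate block, 0 of this list were called higher. Erythroid and platelet markers were called lower in 10 of 11, from 393.2, 214.5 and 143.3 RPKM to 23.18, 18.37 and 18.69 RPKM, led by Hbb-bs. Neutrophil and mast cell markers had 7 of 9 tested genes called lower (3 when only the libraries compared were fitted, with or without the block), from 12.26 to 16.3 RPKM to 0.3758 to 0.6005 RPKM, with 3 of the 10 listed at 0 in all 48 h libraries. CD4 T cell markers were called lower in 2 of 4, from 26.39 to 28.08 RPKM to 12.63 to 13.32 RPKM, and stromal markers in 4 of 8 (2 without replicate 1 of the 0 h or replicate 3 of the 48 h libraries), although their sum, mostly Pecam1, was 27.07 to 32.51 RPKM and then 37.32 to 38.48 RPKM. NK cell markers were called higher in 5 of 8 and lower in 1. Ncr1, the NKp46 receptor, went from 0.485, 0.867 and 0.75 RPKM to 8.07, 9.99 and 10.9 RPKM (3.57 ± 0.39, adjusted p = 4.3e-10). Several of these genes are also made by activated CD8+ T cells, and their sum, in which Tyrobp was the most abundant at 64.7 to 79.4 RPKM at 0 h and 21.5 to 28 RPKM at 48 h, went from 94.11 to 119.3 RPKM to 79.24 to 92.46 RPKM. Replicate 1 held the most B cell, macrophage and erythroid transcripts at 0 h and the most macrophage transcripts at 48 h. Without it at both times 1543 genes were called higher and 2250 lower. The part of these cells in the falls of early, inhibitory and stress genes was not tested.

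**Figure D3:**
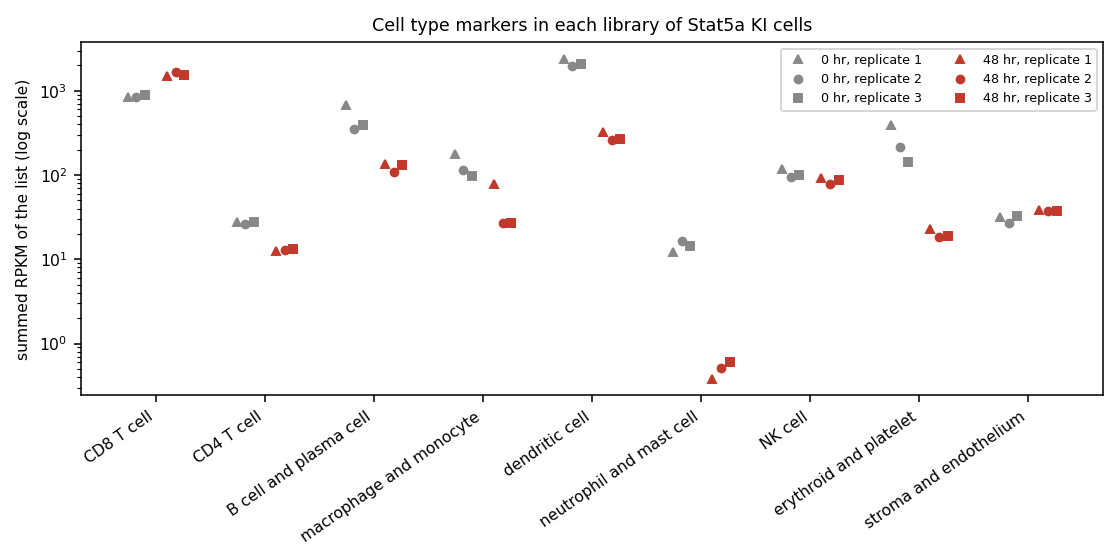
Summed RPKM (log scale) of 9 cell type marker lists in each Stat5a KI library, grey at 0 h and red at 48 h, with the symbol giving the replicate. CD8 markers lie at 836.7 to 881.3 RPKM at 0 h and 1505 to 1661 RPKM at 48 h, and replicate 1 lies highest in the B cell, macrophage and erythroid lists at 0 h.

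The KI response at 24 h shares its 0 h libraries with that at 48 h. Their overlap is therefore built in to some degree, and how far was not tested. At 24 h 1177 genes (7.56%) were called higher and 2103 (13.5%) lower. Of the genes called at 48 h, 951 of the 1574 higher and 1844 of the 2487 lower were called the same way at 24 h. Set directly against 24 h, the 48 h libraries had 393 genes (2.53%) called higher and 155 (0.996%) lower, the latter 246 when only the libraries compared were fitted and 325 with the replicate number added as a block, and 75, 88 and 89 without replicate 1 at 24 h, replicate 2 at 48 h and replicate 3 at 48 h. Most of the rise in mitosis genes came after 24 h. Against 24 h, 37 of 40 were called higher, and their median change from 0 h was 0.77 at 24 h and 2.76 at 48 h. Ccnb1 had a mean of 2.04 RPKM at 0 h, 3.11 RPKM at 24 h and 22.1 RPKM at 48 h (2.84 over 24 h, adjusted p = 2.2e-10). DNA replication genes had 5 of 38 called higher over 24 h. Late changes were ranked only among called genes that met the rule for naming. The 6 largest such rises were in Gzmc (3.05), Ube2c (2.93), Ccnb1, Ccnb2 (2.79), Spp1, which encodes osteopontin (2.78), and Fam64a (2.74). Igtp, at a mean of 250 RPKM at 24 h and 373 RPKM at 48 h, was not called over this step (0.59). Under the same rule, the 6 largest late falls were in Il4i1 and Nup62-il4i1, which overlap and share reads, Apoe, Bbc3 (the death protein PUMA), Mzb1 and Rarg, of -1.04 to -1.36. Mzb1 was not called with the block, and the calls of Apoe, Mzb1 and Rarg were each lost without at least 1 of the libraries, with changes as small as -0.83, -0.50 and -0.93.

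In WT littermates 2495 genes (16.0%) were called higher and 3231 (20.8%) lower over the same 48 h. Of the genes called higher in KI cells, 77.8% were also called higher in WT cells, which was 49.1% of the WT list, and for genes called lower the shares were 81.1% and 62.4%. Only 2 genes called higher and 4 called lower in KI cells were called the opposite way in WT cells. The difference of the 2 responses, tested as an interaction, was called for 443 genes (2.85%) with a higher value in KI cells and 535 (3.44%) with a lower one. The split was 624 and 384 when libraries were scaled by their totals, a scaling that moved the median difference of all genes by 0.11, and 464 and 314 without replicate 1 of the 0 h KI libraries. Replicate 3 of the 0 h WT libraries stood apart from replicates 1 and 2, with a chi-square per gene of at least 39.5 against 14.6 between those, and without it the split was 450 and 524. Of the 535, 405 were called higher in WT cells, and of the 443, 313 were called lower in WT cells. The same WT libraries enter both the difference and the WT calls, so this overlap is built in to some degree. Across the genes called higher in WT cells the median change was 1.5 in WT cells and 1.0 in KI cells. The WT value is the one that chose these genes.

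By list, the smaller response of KI cells was broadest in mitosis genes, with 25 of 40 called lower in the difference and 0 higher. The median change was 2.76 in KI and 3.95 in WT cells. Ccnb1 reached 39.1 to 51.6 RPKM in WT cells against 19.5 to 26.7 RPKM in KI cells at 48 h (difference -1.67 ± 0.36, adjusted p = 0.00055). DNA replication genes had 11 of 38 called lower in the difference, the cyclin and kinase list 6 of 18 with 1 higher, and genes of ATF4 and the unfolded protein response 8 of 19. In the last list the median was -0.37 in KI cells and 0.78 in WT cells. For the early genes, which fell in both, a lower difference is a larger fall in KI cells. They had 5 of 24 called lower in the difference and 0 higher, with a median difference of -0.74. Their summed level was 2994 to 3023 RPKM in KI cells and 2284 to 3235 RPKM in WT cells at 0 h, and 335.2 to 361.4 RPKM and 348.6 to 372.5 RPKM at 48 h. Asns, which makes asparagine and is an ATF4 target, reached 3.07, 2.1 and 2.06 RPKM in KI cells and 7.82 to 16.1 RPKM in WT cells (difference -3.52 ± 0.63, adjusted p = 4.8e-05). Of the IL-2 receptor list, 5 of 20 were called lower in the difference. Il2ra reached 40.1 to 56.8 RPKM in WT cells, above all 3 KI libraries (difference -1.80 ± 0.52, adjusted p = 0.0081, and 0.42 with the shallow 4 h library also in the fit), and Cish 48.8 to 56.7 RPKM (-1.27 ± 0.30, adjusted p = 0.0013, not called at -0.93 without replicate 3 of the 0 h WT libraries). Socs2 reached 11.1 to 15.1 RPKM in WT cells (-2.24 ± 0.31, adjusted p = 9.7e-07). Myc was at 94.2 to 96.9 RPKM in WT cells at 48 h, and its response differed by -1.03 ± 0.25 (adjusted p = 0.0019), just past the threshold. It ranged from -1.30 to -0.71 over the alternatives and lost its call without replicate 1 or 2 of the 0 h KI, replicate 3 of the 0 h WT, replicate 1 of the 48 h KI or replicate 1 of the 48 h WT libraries. Cdk6 reached 31.3 to 36.7 RPKM in WT cells (-1.72 ± 0.16, adjusted p = 1.3e-09). Socs1, by contrast, ended at 94.2 to 105.8 RPKM in WT cells, a range that takes in the KI libraries (difference -0.29 ± 0.32, adjusted p = 0.54).

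Effector genes were split. Gzmb reached 784 to 1317 RPKM in WT cells, above every KI library (difference -1.94 ± 0.45, adjusted p = 0.0013). Ifng reached 35.6 to 81.3 RPKM (-2.31 ± 0.47, adjusted p = 0.00032), Lta 74.8 to 91 RPKM (-2.97 ± 0.17, adjusted p = 1.1e-14) and Lif, a cytokine of the IL-6 family, 24 to 36.9 RPKM against 4 to 4.69 RPKM (-3.25 ± 0.51, adjusted p = 8.6e-06). For Gzmc, Gzma, Tbx21 and Prf1 no difference was called, at -0.99 ± 0.64, -0.09 ± 0.59, 0.03 ± 0.22 and -0.07 ± 0.22. Interferon-stimulated genes had 2 of 28 called lower in the difference, and Igtp differed by 0.17 ± 0.25 (adjusted p = 0.67). Effector and memory transcription factors had 6 of 23 called lower in the difference and 1 higher. That one was Tcf7. Il7r, Itgae and Ccr9 were among the other named genes with a higher value in KI cells. Tcf7 was at 159 to 180 RPKM in WT cells at 48 h against 305 to 333 RPKM in KI cells (1.11 ± 0.10, adjusted p = 1.3e-09), Il7r at 24.1 to 38.7 RPKM against 52.5 to 62.2 RPKM (1.12 ± 0.25, adjusted p = 0.00083), Itgae, the CD103 integrin, at 1.38 to 4.1 RPKM against 15 to 17.6 RPKM (2.44 ± 0.36, adjusted p = 3.9e-06) and Ccr9, the gut homing receptor, at 5.67 to 6.72 RPKM against 19.1 to 22.5 RPKM (1.64 ± 0.20, adjusted p = 1.2e-07). The Il7r call was lost without replicate 3 of the 0 h or replicate 2 of the 48 h WT libraries, at 0.83 at the least. Of the macrophage markers, 7 of 16 were also higher in the difference, Lyz2 among them at 11.4 to 31 RPKM in KI and 0.593 to 3.55 RPKM in WT cells at 48 h, a call lost without replicate 1 of the 48 h KI or replicate 3 of the 48 h WT libraries (1.37 at the least). Dendritic cell markers, a list that holds Ccr9, had 3 of 11 called higher in the difference and 0 lower. Their sums at 48 h were 261.1 to 324.8 RPKM in KI and 47.18 to 100.5 RPKM in WT cells. B and plasma cell markers had 0 of 11 called, with a median difference of 0.82. The part of all these cells in the differences was not tested.

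**Figure D4:**
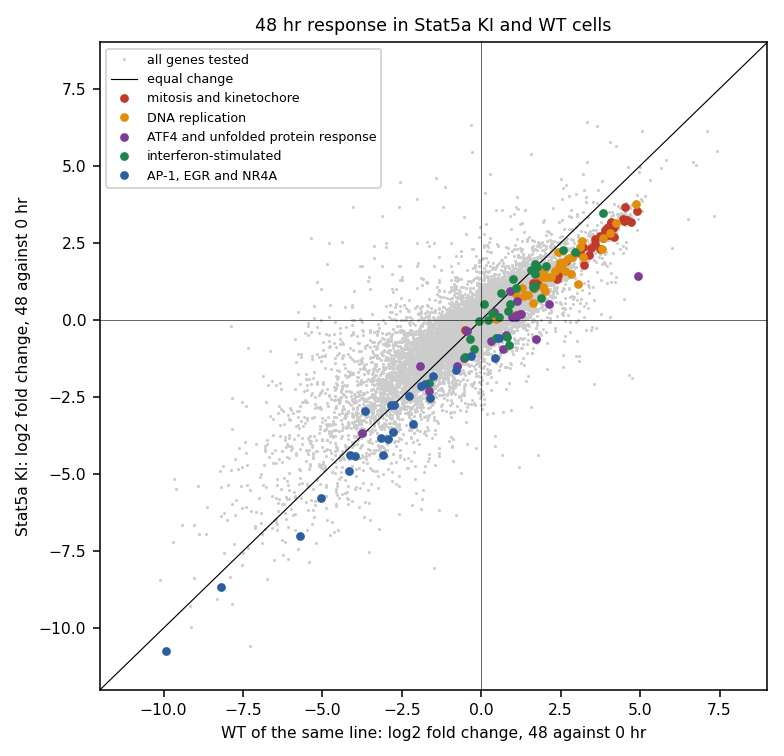
Log2 fold change from 0 to 48 h in WT cells (x axis) and Stat5a KI cells (y axis) for each of the 15562 genes tested, with 5 gene lists in colour and the line of equal change. Nearly all mitosis and replication genes lie to the right of zero and below the line, and most early genes lie low on both axes, near the line or below it.

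Set against the Stat5b KI response, which comes from another mouse line, the Stat5a KI response was the larger in division genes. Stat5b KI cells had 969 genes (6.23%) called higher and 1949 (12.5%) lower over 48 h. The difference between the 2 KI responses was called for 467 genes, of which 325 (2.09% of those tested) had a higher value in Stat5a KI cells and the rest (0.912%) a lower one. The lower calls numbered 321 when only the libraries compared were fitted and 434 with the replicate number added as a block. They numbered 82 without replicate 2 of the 48 h Stat5a KI libraries or replicate 3 of the 48 h Stat5b KI libraries, and 91 without replicate 2 of the 0 h Stat5a KI libraries. Mitosis genes gave 30 of 40 called higher in the difference, DNA replication genes 13 of 38 and the E2F list 5 of 13, with 0 lower in each. Ccnb1 went from a mean of 5.03 RPKM to 13.5 RPKM in Stat5b KI cells, so their lower fold came with a higher start and a lower end than in Stat5a KI cells. Gzmb reached a mean of 71.1 RPKM there (difference 2.73, adjusted p = 7.5e-05) and Igtp 264 RPKM (1.33, adjusted p = 0.00033, and 0.06 with the shallow 4 h library also in the fit). Each such difference is between changes from a line's own 0 h level, and is not a gap between 48 h levels. No difference was called for Il2ra, Cish, Socs2 or Ifng, at 0.57, 0.04, 0.41 and 0.81. Il7r rose to a mean of 118.3 RPKM in Stat5b KI cells from 47.3 RPKM and differed by -1.38 (adjusted p = 0.0002). Of the erythroid and platelet markers, 3 of 11 were called lower in the difference and 0 higher, with a median of -1.70. Macrophage markers had 1 of 16 called lower and 0 higher. The part of these cells in the difference was not tested.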

How the data were processed

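CD8+ T cell RNA was sequenced as 50-base single reads from poly(A) libraries made from 100 ng of total RNA. Per the study's methods and the submitters' notes, the authors aligned reads with TopHat2 2.0.11 to mm10 and kept unique reads. The deposited tables hold, for each of 31682 RefSeq transcripts, the raw read count over exons and the RPKM value, both computed by the authors. The counting program and its strand setting are not given in the sources used here, so overlapping and antisense genes cannot be told apart. The longest transcript of each of 23992 symbols was kept. Libraries held 28446596 to 49386788 counted reads in the KI groups compared, where 3 reads equal 0.0607 to 0.1055 CPM.

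Counts were tested with edgeR 4.0.16 (R 4.3.3) by the quasi-likelihood method, with TMM factors and filterByExpr at a minimum count of 10. One mean was fitted for each of 16 groups over 47 of the 48 libraries, leaving out replicate 3 of the 4 h Stat5a KI group, which held 1028503 reads. Differences between responses were interaction contrasts. RPKM values were used only as levels. On simulated counts of 15562 genes for the 48 h against 0 h KI contrast, 84% of genes changed 2-fold and 98% of those changed 4-fold reached the adjusted p. Replicate numbers paired the samples, as a hint from the data: over 10911 genes, deviations from the group means of same-numbered 0 h and 48 h KI libraries correlated at 0.371, 0.155 and 0.313, and every library correlated best with its own number. In the 7 groups compared, no replicates were duplicates, with a chi-square per gene of 7.62 or more between any pair.

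Named genes were the 12 largest rises and falls among called genes with a mean of at least 5 RPKM, more than 3 reads in every library and no overlap between the times, the 6 largest each way for the other contrasts, a fixed set of IL-2 pathway genes, and up to 4 of the largest changes each way in each list. Other list members, such as Pim2, Bcl2, Ldha and Pcna, were named after their values were seen. The contrast, gene lists and sequence motifs were chosen with earlier results of these data known. Alternatives were DESeq2 1.42.0, DESeq2 size factors, library totals, no low-count filter, a filter of 1 RPKM in 3 libraries, limma 3.58.1 on log2(RPKM + 1), all 48 libraries, the libraries compared alone with and without a replicate block, the transcript with the most reads, no fold threshold and leaving out each library. Leaving out replicate 1 at both times was added after seeing the data. Some genes are not reported here.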

Additional observations from a re-analysis of the deposited data

Results flagged for a closer look

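The response of the KI cells differed from that of WT littermates, by the interaction test in edgeR, at 978 genes, 443 with a higher and 535 with a lower value in KI cells. Only called genes that met the rule for naming, which left out those of low level, were ranked. Among them the largest higher values were in Itgae (2.44), the myeloid genes Lyz2 (1.90) and Sirpa (1.89), Fam211b (1.81), Cd7 (1.79) and Ccr9 (1.64). Itgae, Ccr9 and Cd7 were not called in KI cells over 48 h, at -0.83, -0.50 and 0.11, and fell in WT cells, at -3.27, -2.14 and -1.69. Under the same rule, the largest lower values were in Tgm2, a transglutaminase (-3.57), Asns (-3.52), Mt1, a metallothionein (-3.30), Lif (-3.25), the interferon-induced Ifitm1 (-3.17) and Lrrc32, which encodes the TGF-beta docking protein GARP (-3.14). The Lyz2 call was lost without replicate 1 of the 48 h KI or replicate 3 of the 48 h WT libraries, and the Sirpa call with limma (0.80), and both with the shallow 4 h Stat5a KI library also in the fit. Tgm2 was at 2.2 to 6.15 RPKM in KI and 16.7 to 30.7 RPKM in WT cells at 48 h.

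The response also differed from that of Stat5b KI cells, by the same test, at 467 genes, 325 of them with a higher value in Stat5a KI cells. Here too only called genes that met the rule for naming were ranked. Among them the largest higher values were in AA467197 (2.77), Gzmb (2.73), the host-embedded Mir5114 (2.57), Clhc1 (2.04), Troap (1.99) and Rad54l, of DNA repair (1.98). AA467197, a small mitochondrial protein gene also known as Nmes1, reached 10.2 to 18.1 RPKM in Stat5a KI cells and a mean of 1.82 RPKM in Stat5b KI cells. Under the same rule, the largest lower values were in Hspa1b (-2.03), Hmox1 (-1.90), the host-embedded Mir142 (-1.70), Klf4 (-1.68), Bbc3 (-1.67) and Il7r (-1.38). The Hspa1b call (adjusted p = 0.044 in edgeR) was lost under 12 of the alternatives, most of them leaving out 1 library, and its value ranged from -2.66 to -1.74. The Hmox1 call was lost without replicate 1 of the 0 h or replicate 2 or 3 of the 48 h Stat5a KI libraries or replicate 1 of the 48 h Stat5b KI libraries, with values of -2.54 to -1.51 over all alternatives. The Klf4 call was lost with limma (-0.77), and the calls of Hmox1, Klf4 and Troap were lost with the shallow 4 h Stat5a KI library also in the fit.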

How the results depend on the processing

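None of the 293 called gene values named turned direction under the alternatives run, and 14 of the 60 not called took both signs, among them the changes of Stat5a, Stat5b, Myc and Tcf7 over 48 h, but the balance of higher and lower calls turned in places. At 48 h against 0 h limma called more genes higher than lower (values below). The difference from WT, with 443 higher and 535 lower, became 624 and 384 with library totals, 468 and 479 with only the libraries compared, 565 and 504 with the block as well, and 464 and 314, 486 and 417, and 557 and 532 without replicate 1 of the 0 h KI, 0 h WT and 48 h WT libraries. The difference from Stat5b KI, with 69.6% of its calls higher, became 329 and 321 with only the libraries compared and 355 and 434 with the block as well. Of the called values, 233 kept their call under every alternative run and 60 lost it under at least 1, of which 20 did so only with limma on log2(RPKM + 1), a scale that shrinks low genes. Fitting only the libraries compared ended the calls of Slc16a3, Bysl, Psmd7, Bik, Trp53 and Psmb9 (0.93 to 0.99), and they were not called with the replicate number added as a block either. It also ended those of Il2rb, Cdk6 and Ldha, as given above, and, without the block, those of Ubash3a and of the difference from WT of Myc. With the block 1322 genes were called higher and 2312 lower at 48 h, against 1309 and 2292 from the same libraries without it, and of the named genes the block itself ended the call of Mzb1 over 48 h against 24 h and no other.

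At 48 h against 0 h, the genes called lower numbered 1420 with the RPKM filter and 636 with limma, which called 1253 higher (66.3% of its calls, against 38.8%). Without a fold threshold 9761 genes passed. DESeq2 size factors gave 1300 higher and 2727 lower and moved the median of all genes by -0.107. Leaving out single libraries gave 1406 to 1580 higher and 2276 to 2497 lower.

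For the difference from WT, higher calls numbered 226 with all 48 libraries and 91 with limma, and lower calls 163 with limma. Leaving out single libraries gave 339 to 557 higher and 314 to 620 lower. For the difference from Stat5b KI, higher calls numbered 181 with all 48 libraries and 162 with limma. Lower calls were 91 with the RPKM filter, 27 with all 48 libraries, 16 with limma, 321 with only the libraries compared and 434 with the block, and leaving out single libraries gave 229 to 413 higher and 82 to 154 lower. For 48 h against 24 h, limma called 200 higher and 6 lower, and lower calls were 73 with all 48 libraries, 246 with only the libraries compared and 325 with the block. Leaving out single libraries gave 291 to 405 higher and 75 to 179 lower. The cause was not tested for these differences.

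With a window of 150 bases before the start, shorter by construction, TTTGAA was in 25.6% of mitosis and 9.07% of all promoters, CCAAT in 64.1% and 24.5%, the E2F forms TTTCCCGC and TTTGGCGC in 5.56% and 8.33% of replication promoters against 0.603% and 0.268%, and the paired GAAA run in 32.1% of interferon list promoters against 1.59%. Of simulated 2-fold changes 84% reached the adjusted p and 49% were called, since the fold threshold lies at the simulated fold.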
